A study of Danio rerio with 4 samples.

Results

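The claudin genes were followed in hearts of zebrafish embryos that lack normal Ccm2. They were taken as every gene whose platform symbol starts with cldn, which gave 38 genes of the 14434 with a symbol on the arrays. These 38 genes were read by 53 probes. For the comparison they were split into 2 endothelial claudins (cldn5a and cldn5b), 4 of myelin and glia (cldnk, cldn11a, cldn11b and cldn19), 1 claudin domain gene (cldnd1a) and the remaining 31, called epithelial here because no other group held them.

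Claudins are membrane proteins of tight junctions. Their outer loops meet those of claudins on the neighbouring cell and close the gap between cells, and in some claudins they form pores for particular ions. Each kind of epithelium carries its own mixture, whereas claudin 5 is the claudin best known from vascular endothelium, where it takes part in the barrier of brain vessels. Ccm2 is an adaptor protein of the cerebral cavernous malformation complex, whose known role is in the endothelium and endocardium. Loss of this complex is known for weakened endothelial junctions.

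Whole hearts were dissected by hand from embryos at 72 hours post fertilization (hpf). There were 2 samples from wild-type (WT) embryos and 2 from ccm2 m201 mutants, and each was a pool of hearts hybridised to 1 single-colour array, with the 4 arrays on 1 slide. No label says whether pools were drawn from separate clutches, and p-values therefore measure only the spread between these samples, and 2 arrays a group limit the precision of every value. The description field of both mutant samples also speaks of Bmp2b overexpression, whereas title, source and genotype name only the ccm2 allele, which leaves the mutants' treatment unsettled. Signals are given on the log2 scale after each array was scaled to its 75th percentile. Such a signal can be compared between arrays for 1 probe, but not between probes, since each probe binds its target differently.

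Whole-array facts bear on these values in a few ways. Between 54.0% and 55.9% of features were well above background and 0 were saturated. The array headers give only the number of such features, so a probe counts as well above background on an array when its signal ranks within that number. The correlation over probes was 0.973 between the WT arrays, 0.975 between the mutant arrays and 0.915 to 0.924 across groups. The ccm2 probe itself read 5.45 and 5.79 in WT and 5.16 and 4.92 in mutants, which differed by -0.58 ± 0.22 (SE), at an adjusted p of 0.167 in limma, not past the test. The labels do not say whether m201 changes the transcript level, so this probe checks the genotype only weakly. Cardiomyocyte markers were present, with 9 of 10 measured genes well above background on all arrays, whereas myl4 was so on none, and 0 of 9 tested passed. Of 8 tested leukocyte markers 8 rose. Of 9 red cell markers 7 fell (gata1a among them entered through the WT arrays alone) and 1 rose. Of 8 epicardial markers 3 rose, whereas by estimate 4 were above 0 and 4 below, with tcf21 at -1.13. Of 5 pigment cell markers 1 fell, whereas the other 4 were above 0 by estimate and did not pass. The pigment cell median was 1.94, and mitfa entered through the mutant arrays alone. Of 11530 tested genes, 17.1% passed limma's test at an adjusted p under 0.05, 8.09% with higher and 9.02% with lower signal in mutants.

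A difference between the WT pools touched most claudins and stands before the results for that reason. Of 25 tested claudins, 22 had higher signal on WT array 1 than on WT array 2, against 53.2% of all tested genes. The exceptions were cldn5a, cldn5b and cldnd1a. For 14 claudins the gap was over 1 on the log2 scale, a gap that 5.57% of all tested genes had, and 0 claudins were over 1 higher on WT array 2, against 2.69% of all genes. The mutant arrays differed by over 1 for 3 claudins (cldne, cldng and cldnk), against 7.64% of all genes. Both mutant arrays lay between the WT arrays for 10 claudins, and for 9 of the 19 epithelial ones (47.4%), against 6.65% of all genes. A wide WT gap leaves more room for this order, so it is no second result beside the gap. It held for 9 of the 13 epithelial claudins with a gap over 1 and for 0 of the other 6. This pattern was seen in the values and was given no test.

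The claudins with a gap over 1, and those with both mutant arrays between the WT arrays, were of the epithelial group except for cldn11a of the myelin and glial group. All 19 tested epithelial claudins were higher on WT array 1, with a median gap of 1.36, whereas their median gap between the mutant arrays was 0.00. The gap exceeded 1 for 13 of them: cldn1, cldn15la, cldn15lb, cldn23.1, cldn3c, cldn3d, cldn7a, cldn7b, cldn8.2, cldnb, cldne, cldnf and cldni. Over all genes the median gap between the WT arrays was 0.02, and for the endothelial claudins it was -0.24.

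Among marker lists of other epithelia, some members had the same order. Of 12 tested pronephros markers, 7 were over 1 higher on WT array 1 than on WT array 2, and the median gap was 1.28. For 16 tested markers of gut, liver and pancreas the median gap was 0.49, and the summed linear signal of the list was 39192 on WT array 1, 6371 on WT array 2, and 12741 and 11789 on the mutant arrays. Most of that sum came from tfa, fabp10a and apoa4b.1, without which it was 1523 and 1152 in WT and 2081 and 1751 in mutants. Of the 16 genes 9 were higher on WT array 1, 7 of them by over 1, whereas ins, gcga and ela3l were over 1 higher on WT array 2. For 18 tested markers of skin and periderm the median gap was 0.58, and for 5 of pigment cells it was 3.33. The epithelial adhesion gene epcam read 6.68 and 4.52 in WT and 6.25 and 5.88 in mutants, and the gut and kidney cadherin cdh17 read 7.19 and 3.39 in WT and 5.33 and 5.72 in mutants. In both genes the mutant arrays lay between the WT arrays, as for the claudins above. That order held for 6 of 18 skin and periderm markers, 6 of 16 of gut, liver and pancreas, and 5 of 12 of the pronephros. Over all genes, whose median WT gap was 0.02, it held for 6.65%, so these shares do not compare genes with like gaps. It did not hold for the cadherin gene cdh1 of the skin list, with 10.41 and 10.39 in WT and 8.81 and 9.65 in mutants. Cardiomyocyte, endothelial and epicardial markers had median WT gaps of 0.12, 0.01 and -0.01. The part of such tissue in the claudin values was not tested, and in a bulk sample fewer cells of a type cannot be told apart from less RNA per cell.

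**Figure D1:**
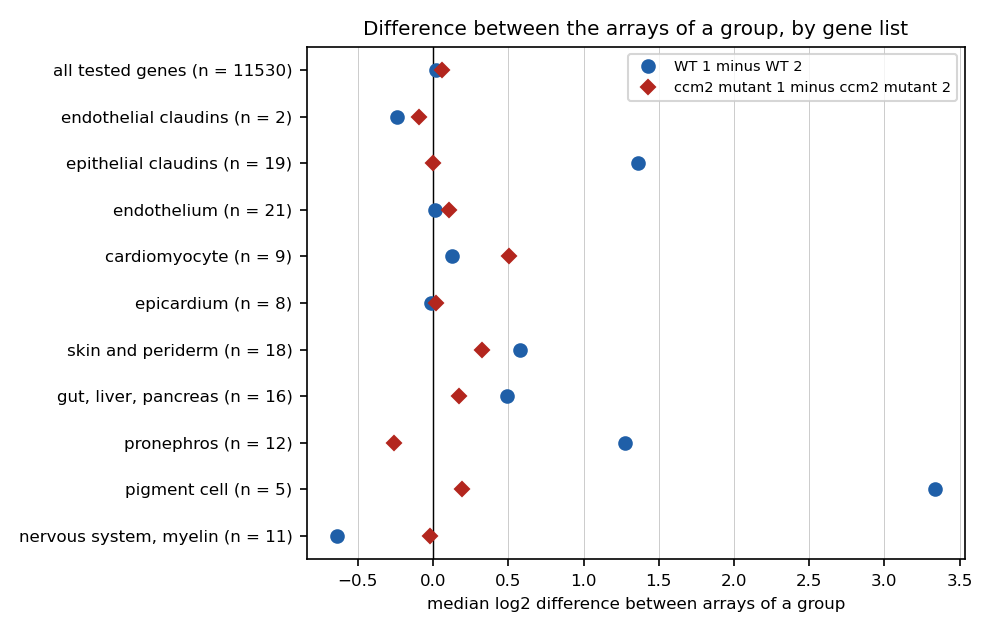
Median log2 difference between the arrays of each group (WT array 1 minus WT array 2 as circles, mutant array 1 minus mutant array 2 as diamonds) for each gene list, with the number of tested genes in parentheses. Epithelial claudins sit at 1.36 between the WT arrays and 0.00 between the mutant arrays, beside pronephros markers at 1.28 and all genes at 0.02.

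Against that spread, 2 of the 25 tested claudins passed the test, both with lower signal in mutants, and 0 with higher signal. That is 8.00% of the tested claudins, against 17.1% of all tested genes. At an unadjusted p under 0.05 there were 11 claudins, against 35.7% of all genes. The median difference of mutant minus WT over the 25 claudins was 0.10, against -0.04 over all tested genes. The arrays of the groups did not overlap for 14 claudins, 7 in each direction. Over all genes 67.8% had non-overlapping arrays, 32.7% with higher and 35.1% with lower signal in mutants. The median of the claudins depended on which WT array was kept: it was 0.71 without WT array 1 and -0.75 without WT array 2. Other processing also moved the count of higher claudins, up to 3 of them with no scaling between arrays. That setting gave 1290 higher calls over all tested genes, against 933 as reported.

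**Figure D2:**
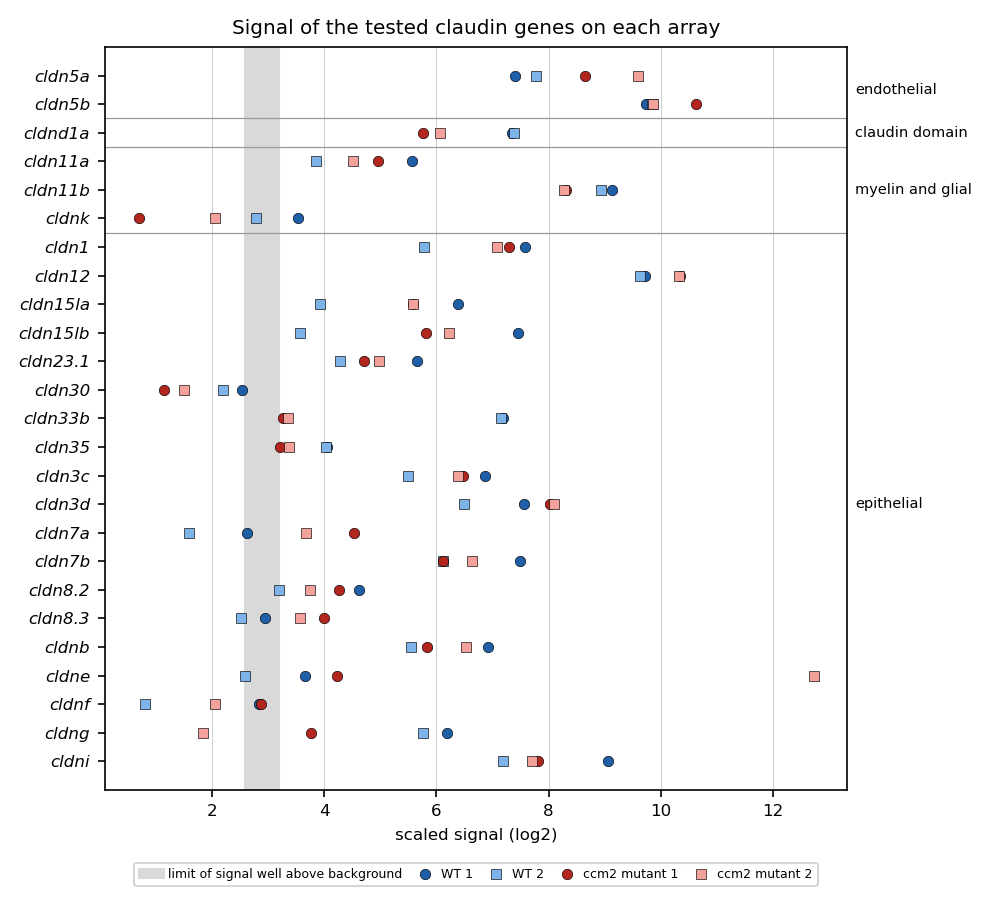
Scaled log2 signal of each of the 25 tested claudins on the 4 arrays, WT in blue and ccm2 mutants in red, with circles for the array numbered 1 and squares for that numbered 2 in each group. The grey band spans the limits of signal well above background on the 4 arrays, 2.60 to 3.20; in all 19 epithelial claudins the WT circle lies right of the WT square.

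The endothelial claudins were higher in mutants by estimate, but neither passed the test. In zebrafish, cldn5a is known from the brain's ventricular lining and cerebral vessels, and cldn5b from vascular endothelium. The cldn5a probe read 7.40 and 7.77 in WT (mean 7.58 ± 0.26 SD, n = 2) and 8.64 and 9.59 in mutants (9.12 ± 0.67 SD, n = 2). Both mutant arrays were above both WT arrays, by a difference of means of 1.53 ± 0.40 (SE), with a 95% interval of 0.42 to 2.64. This is 2.89-fold, at an adjusted p of 0.0803 in limma. The cldn5a call depended on the test's settings, with an adjusted p of 0.0319 when limma's spread was modelled with trend and robust options and 0.0333 when dimmer probes were left out.

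The second gene of the pair was nearer to its WT signal. The cldn5b probe read 9.74 and 9.84 in WT and 10.62 and 9.86 in mutants. The groups did not overlap, but mutant array 2 was barely above WT array 2. The difference was 0.45 ± 0.32 (SE), with a 95% interval of -0.44 to 1.34 and an adjusted p of 0.404 in limma. Without mutant array 1 it was 0.07, and without mutant array 2 it was 0.83. The mutant arrays took opposite orders in the pair, with array 2 the higher for cldn5a and array 1 the higher for cldn5b. These intervals overlap, and whether the pair's responses differ from each other was not tested.

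Endothelial markers were higher in the same mutant arrays. Of 31 listed markers 21 were measured and tested, of which 12 rose, 0 fell and 9 did not pass, with a median of 1.07. The share past the test was 57.1%, against 17.1% of all tested genes (8.09% higher and 9.02% lower). This list was chosen with earlier results of these data known, so its share is no independent measure of endothelium. The summed linear signal of the list was 49032 and 47940 in WT and 125508.5 and 106201.7 in mutants, and 20 of the 21 were well above background on every array. Without aqp8a.1, an aquaporin gene and the brightest of the list, the sum was 45404 and 44665 in WT and 83518 and 70486 in mutants. Both nfatc1 and tal1 were lower in mutants without overlap, at -0.94 and -0.49, and did not pass. Risers included the VEGF receptor genes kdr, flt1 and flt4, the angiopoietin receptor gene tek, and lyve1a, a gene of lymphatic and some venous endothelium. The endothelial cadherin gene cdh5, the core of endothelial adherens junctions, differed by 0.49 ± 0.18 (SE) and did not pass (limma, adjusted p = 0.159). The cldn5a difference lay among those of the risers, between lmo2 at 1.65 and kdr at 1.33. The cldn5b difference lay between those of cdh5 and the VEGF receptor gene kdrl at 0.23. The part of a changed amount of endothelium in the claudin values was not tested.

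**Figure D3:**
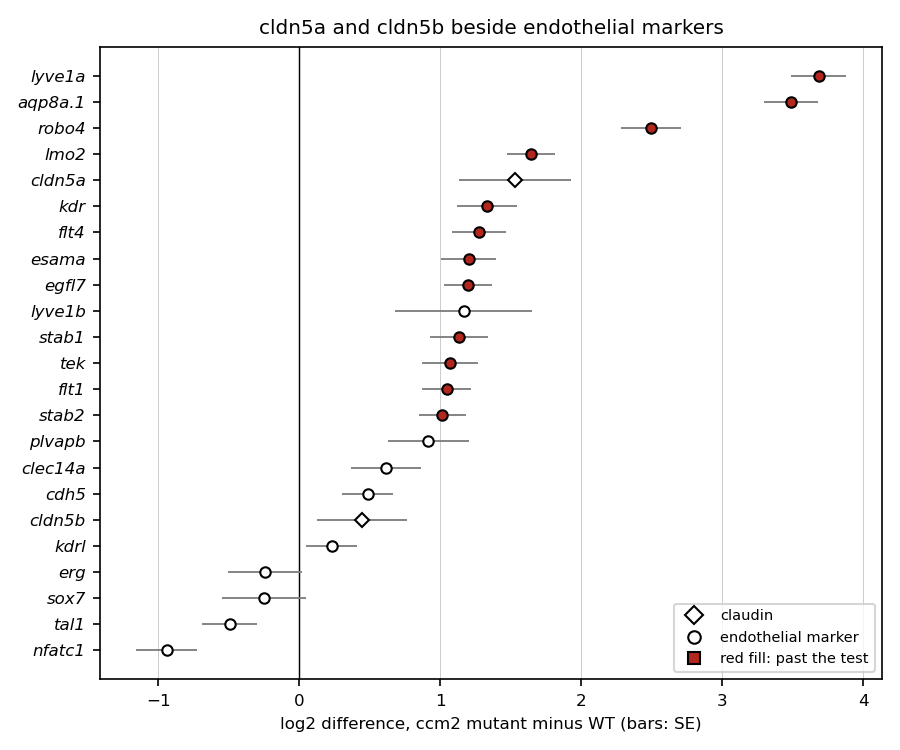
Log2 difference of ccm2 mutant minus WT (bars are the SE of limma's fit) for cldn5a and cldn5b (diamonds) and the 21 tested endothelial markers (circles), ordered by size, with red fill for genes past the test. The cldn5a point at 1.53 lies within the range of the red markers and has a wider bar than all markers drawn but lyve1b.

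The claudin with the clearest loss of signal was cldn33b, of the epithelial group by exclusion. It read 7.18 and 7.15 in WT and 3.27 and 3.36 in mutants. The arrays of each group were within 0.1 of each other and the groups were far apart, with all 4 signals well above background. The mutant signals were not far above their background limits of 2.85 and 2.60, so the size of the fold is uncertain. The difference was -3.85 ± 0.17 (SE), with a 95% interval of -4.32 to -3.38, so that signal fell 14.4-fold at an adjusted p of 0.00729 in limma. Without mutant array 1 the adjusted p was 0.0581 and without mutant array 2 it was 0.0571, and in these fits with 1 mutant array 0 of all genes passed. When background was corrected anew from the raw median signal, with an offset that compresses low signals, the difference was -1.51 and passed. In the current genome's gene order cldn33b is next to or near cldn34a, which was well above background on WT array 2 alone.

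The other claudin that fell was cldnd1a, the zebrafish relative of a claudin domain protein that resembles claudins and whose part in tight junctions is less settled. It read 7.35 and 7.38 in WT and 5.77 and 6.06 in mutants, again with close WT arrays and no overlap. The difference was -1.45 ± 0.19 (SE), with a 95% interval of -1.99 to -0.91, or 2.73-fold lower at an adjusted p of 0.0236 in limma. Leaving out any 1 array gave differences of -1.59 to -1.30, none of which passed. Such fits lost calls over all genes too, so that loss is not particular to cldnd1a. With the sample numbers as a replicate block the adjusted p was 0.0587.

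**Figure D4:**
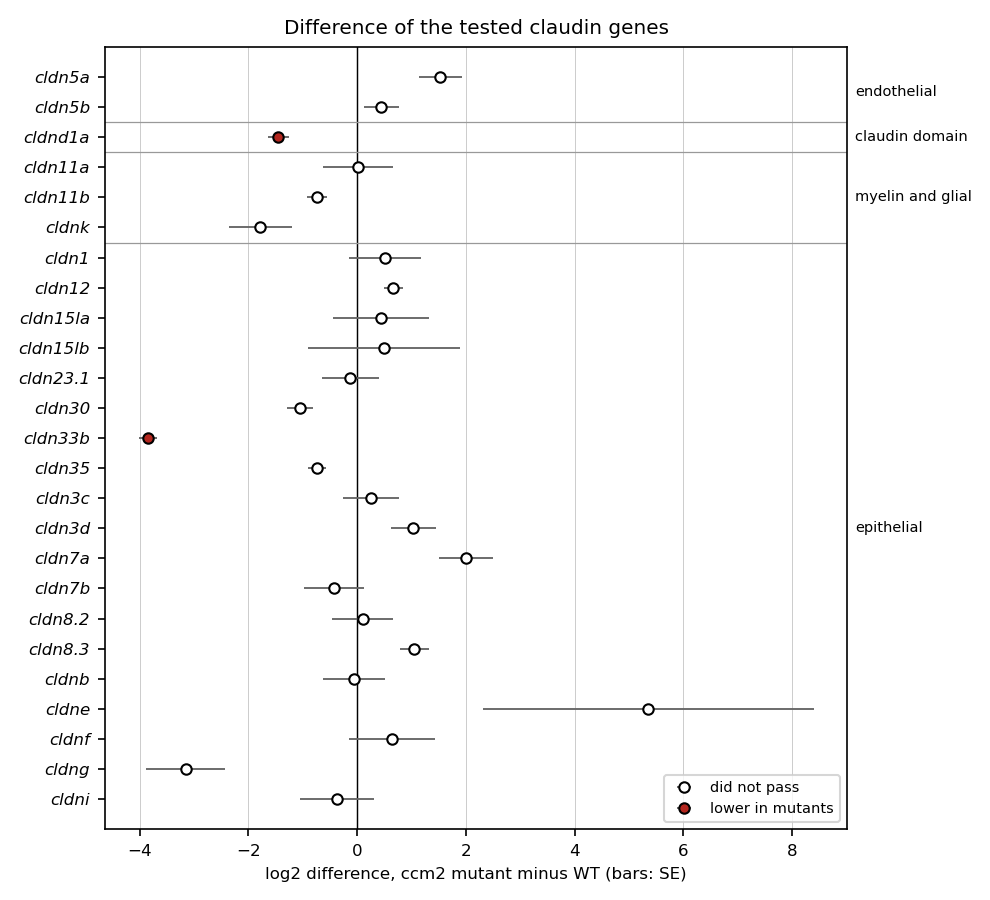
Log2 difference of ccm2 mutant minus WT for each of the 25 tested claudins, by group, with the SE of limma's fit as bars and red fill for genes past the test. Only cldnd1a and cldn33b are filled, both left of 0, and the longest bars belong to cldne and cldn15lb.

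Next in order of p stood cldng and cldn30, both lower in mutants by estimate and neither past the test. The chosen cldng probe read 6.18 and 5.76 in WT and 3.78 and 1.85 in mutants, and its lower mutant array was not well above background. The groups did not overlap, and the difference was -3.16 ± 0.72 (SE) at an adjusted p of 0.0628 in limma. Without mutant array 1 the difference was -4.12 and without mutant array 2 it was -2.19. It passed in 3 alternatives: at an adjusted p of 0.0215 with normexp on raw median signal, where it was -0.90, at 0.0266 with trend and robust options, and at 0.0326 with the mean over its probes, where it was -3.82. A second cldng probe with lower mean signal read 5.58 and 4.77 in WT and 1.18 and 0.19 in mutants. It passed, with a difference of -4.49 ± 0.48 (SE) and an adjusted p of 0.0160, and since neither mutant array was well above background the fold was at least 5.47-fold lower. This second probe met the filter on dim probes through the WT arrays alone, so a lower mutant value was built into its entry. Its direction therefore adds no separate evidence to that of the chosen probe. The cldn30 probe read 2.55 and 2.20 in WT and 1.16 and 1.51 in mutants, all below the background limit of their arrays, so no fold is given for its adjusted p of 0.0633. By the chosen probes, cldn30 was the 1 tested claudin that met the filter on dim probes through the WT arrays alone. A lower mutant value was thus built into its entry as well.

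Signals near background limited several claudins. If both arrays of a group stayed under the background limit, only a bound on the fold is given, from the bright group's mean against the dim group's mean with each dim array set to the limit or its own signal, whichever was higher. Such a bound allows for the dim arrays but not for the spread between arrays. In all, 18 of the 38 claudins were well above background on all 4 arrays and 10 on none. For 2 claudins only the mutant arrays qualified. The cldn7a gene, a zebrafish counterpart of the mammalian epithelial claudin 7, read 2.62 and 1.59 in WT and 4.53 and 3.68 in mutants, at least 2.17-fold higher with an adjusted p of 0.0748. The cldn8.3 gene read 2.95 and 2.52 in WT and 3.99 and 3.58 in mutants, at least 1.74-fold higher with an adjusted p of 0.0776. Both had non-overlapping groups, as had 67.8% of all tested genes. The cldn8.3 gene passed with quantile normalization (adjusted p = 0.0424), median scaling (0.0448) and no scaling (0.0396), and cldn7a with no scaling (0.0488) and the replicate block (0.0434). With background corrected anew from the raw median signal, the differences shrank to 0.30 for cldn7a (adjusted p = 0.0950) and 0.12 for cldn8.3 (0.437), on a scale that compresses low signals.

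A dim signal on a single array marked several others. On WT array 1 alone, cldn18 was well above background with 3.62 against 0.38 on WT array 2 and 0.48 and 0.18 in mutants. Likewise cldn8.1 read 3.35 there against 0.52, 0.73 and 0.50, and cldn29 read 3.80 against 1.89, 0.51 and 0.20. On WT array 2 alone, cldn34a read 3.57 against 0.90 on WT array 1 and 0.43 and 1.77 in mutants. These 4 genes did not pass the filter on dim probes and have no test. For cldnf, mutant array 1 alone was at the limit, with 2.88, against 2.06 on mutant array 2 and 2.85 and 0.82 in WT. The 9 untested claudins that were above background on no array were cldn10a, cldn10e, cldn15b, cldn19, cldn23l, cldn28, cldna, cldnd and cldnj. One of them, cldnj, is known from the otic vesicle of the zebrafish. A second, dimmer probe of cldn15b was above background on WT array 1 alone. A signal below the limit says only that it was not detectable on these arrays.

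In the brighter epithelial claudins the widest spread mostly lay between the WT arrays. The gut claudin genes of zebrafish, cldn15la and cldn15lb, are examples chosen after their values were seen. The cldn15lb probe read 7.46 and 3.58 in WT and 5.81 and 6.23 in mutants, and cldn15la read 6.38 and 3.92 in WT and 5.59 and 5.59 in mutants. In both, the mutant arrays were close together and lay between the WT arrays. Their differences were 0.50 ± 1.40 (SE) and 0.44 ± 0.89 (SE), with adjusted p of 0.840 and 0.776 in limma. Without WT array 2 they became -1.44 and -0.79.

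Of 7 further genes with a WT gap over 1, named after their values were seen, 2 have well-known roles. The cldn1 probe, whose mouse counterpart is required for the skin's water barrier, read 7.58 and 5.78 in WT and 7.30 and 7.08 in mutants. The cldnb probe, known from the lateral line and other epithelia of the zebrafish embryo, read 6.93 and 5.55 in WT and 5.83 and 6.52 in mutants. Both genes had their mutant arrays inside the WT range, with adjusted p of 0.652 for cldn1 and 0.954 for cldnb. The cldni probe read 9.05 and 7.20 in WT and 7.81 and 7.71 in mutants. Similar orders held for cldn3c with 6.86 and 5.50 in WT and 6.47 and 6.40 in mutants, and for cldn7b with 7.50 and 6.11 in WT and 6.12 and 6.64 in mutants. The dimmer cldn23.1 read 5.66 and 4.29 in WT and 4.71 and 4.98 in mutants, and cldn8.2 read 4.62 and 3.19 in WT and 4.27 and 3.74 in mutants. The SE of the difference was 0.51 to 0.68 in these 7 genes, against 0.40 for cldn5a.

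Among skin and periderm markers, 3 of 18 tested genes rose and 0 fell, a share of 16.7% against 17.1% of all genes, with a median of 0.08. These were krt18a.1, icn and anxa1a. The summed linear signal of that list was 100238.3 and 80484.17 in WT and 148997.6 and 108285.8 in mutants. Without the 3 brightest genes, krt8, icn and krt4, it was 16239 and 12084 in WT and 33259 and 28461 in mutants. The arrays of the groups did not overlap for 9 of the 18, against 67.8% of all genes. Of these 9, 4 were higher and 5 lower in mutants, cdh1 at -1.17 and agr2 at -1.06 among the lower. Of 16 tested markers of gut, liver and pancreas, 1 rose and 1 fell (ela2l and prss59.1, each past the filter on dim probes through 1 group alone), and of 12 of the pronephros 0 rose and 1 fell.

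Other orders were seen in cldn12, cldn35 and cldn3d, in which the groups did not overlap and which were named after their values were seen. Claudin 12 is unusual among mammalian claudins in lacking the end that binds PDZ scaffold proteins. Its probe read 9.71 and 9.63 in WT and 10.35 and 10.33 in mutants, with each group tight, a difference of 0.67 ± 0.17 (SE) at an adjusted p of 0.0753 in limma. It passed in 4 alternatives, at an adjusted p of 0.0175 to 0.0455. The cldn35 probe read 4.05 and 4.04 in WT and 3.22 and 3.38 in mutants, a difference of -0.74 ± 0.17 (SE) at an adjusted p of 0.0672. The cldn3d probe, with a wider WT gap, read 7.56 and 6.50 in WT and 8.03 and 8.10 in mutants, a difference of 1.03 ± 0.41 (SE) at an adjusted p of 0.177.

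Of the myelin and glial claudins 3 were tested and 0 passed, with a median of -0.74. In zebrafish, cldnk is a gene of myelinating glia, and in the mouse claudin 11 is a protein of central myelin. The cldnk probe read 3.54 and 2.79 in WT and 0.70 and 2.07 in mutants, at least 1.35-fold lower in mutants, where no array was well above background, at an adjusted p of 0.123. With normexp on raw median signal, a scale that compresses low signals, the cldnk difference was -0.15 (limma, adjusted p = 0.369). The cldn11b probe read 9.12 and 8.93 in WT and 8.30 and 8.28 in mutants, a difference of -0.74 ± 0.18 (SE) at an adjusted p of 0.0702. It passed in 3 alternatives: with normexp (adjusted p = 0.0145), with dimmer probes left out (0.0272) and with trend and robust options (0.0246). The groups did not overlap in either gene. The cldn11a probe read 5.57 and 3.86 in WT and 4.97 and 4.51 in mutants, with the mutant arrays inside the WT range, and differed by 0.02 ± 0.65 (SE) at an adjusted p of 0.989.

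Most of the tested nervous system markers had lower signal in the same mutant arrays. Of 12 measured markers 11 were tested, of which 7 fell and 1 rose, with a median of -1.57. The share past the test was 72.7%, against 17.1% of all tested genes (8.09% higher and 9.02% lower). This list too was chosen with earlier results of these data known. Of the 7 that fell, elavl3, sypb, olig2 and crx met the filter on dim probes through the WT arrays alone, so that a lower mutant value was built into their entry. Among the other 7 tested markers 3 fell and 1 rose, with a median of -0.76. The summed linear signal of the list was 1341 and 2448 in WT and 972 and 875 in mutants, so it was highest on WT array 2, whereas cldnk, cldn11a and cldn11b were each higher on WT array 1. Without crx, the brightest of the list, the sum was 1059 and 1757 in WT and 971 and 874 in mutants. The 3 that fell were the neuronal genes stmn1b, snap25a and syt1a. The 1 that rose, elavl4, is also a neuronal gene, with a difference of 1.28 at an adjusted p of 0.0460 in limma. The snap25b difference was 0.42 and did not pass. The myelin genes mbpa, mbpb, plp1a, plp1b and mpz were not among the named probes. The part of neural tissue in the claudin values was not tested.

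The largest claudin difference by estimate, that of cldne, lay on a single spot. The chosen probe read 3.66 and 2.59 in WT, 4.23 on mutant array 1 and 12.72 on mutant array 2. Mutant array 2 stood alone, and the difference of 5.35 ± 3.04 (SE) had an adjusted p of 0.307. The processed signal of that spot was 3.19 times its raw median signal, whereas the ratio was 0.353, 0.200 and 0.454 on the other arrays. Only 12 of 43603 probes on mutant array 2 had a processed signal over 2 times the raw median. Its other tested probes gave 0.74 ± 0.77 (SE) and 0.08 ± 0.30 (SE), with adjusted p of 0.566 and 0.887, and neither had a value like that on mutant array 2.

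Probes of the same gene otherwise gave the same direction in most cases. A single probe read 25 claudins, among them cldn5a, cldn5b, cldn33b and cldnd1a, whose values no second probe checks. Of the 13 claudins with several probes, 7 had more than 1 that was tested. The pairs pointed the same way in cldn11b, cldn12, cldn15lb, cldng and cldni, and on opposite sides of 0 in cldnb, at -0.06 and 0.10. For cldng the direction was built into the second probe's entry, so that pair shows no separate agreement. For cldn11b the pair differed in size, at -0.74 and -0.24, and the second probe's adjusted p was 0.420. For cldn12 the second probe gave 1.07, at an adjusted p of 0.0849. With each of the 33 tested claudin probes counted by itself, 3 passed with lower signal and 0 with higher. Among the 3 was the second cldng probe, which met the filter on dim probes through the WT arrays alone.

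**Figure D5:**
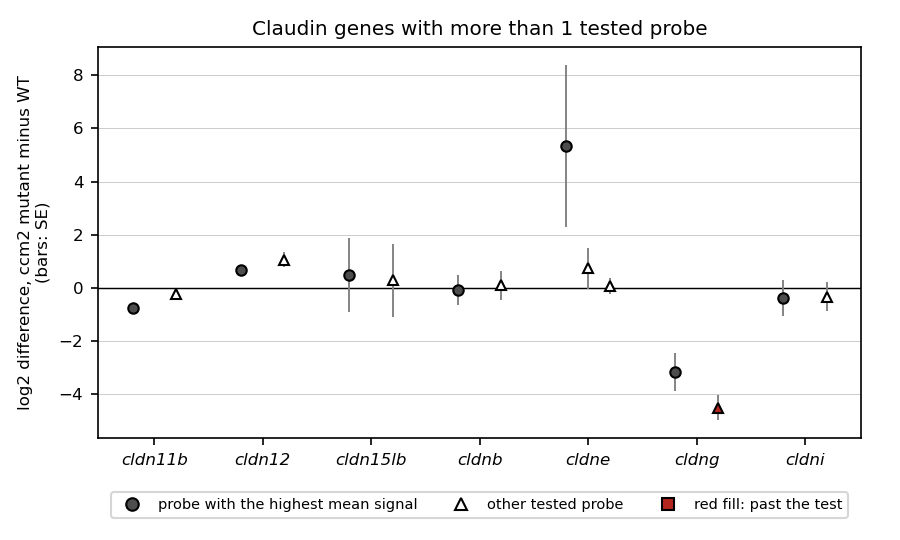
Log2 difference of ccm2 mutant minus WT with its SE for each tested probe of the 7 claudins that had more than 1, with circles for the probe of highest mean signal, triangles for the others and red fill for a probe past the test. The cldne circle at 5.35 stands apart from its triangles at 0.74 and 0.08, and for cldng the second probe at -4.49 is the filled one.

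Several claudin genes are neighbours in the current zebrafish gene order. By the rule that at most 1 coding gene lies between them, 18 of the 38 fell into 5 runs. The longest held 7 genes (cldn28, cldn29, cldn30, cldn3c, cldn3d, cldnb and cldnd), of which 4 were tested and 0 passed, with differences from -1.04 to 1.03. The lowest value is that of cldn30, below background on every array. In the run of cldn8.1, cldn8.2 and cldn8.3 the tested pair gave 0.10 and 1.05, and cldn10a and cldn10e, another run, were both below background on every array. The run of cldna, cldne, cldnf and cldnj had 2 tested members, and that of cldn33b and cldn34a had 1, which fell.

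Few tight junction partners passed the test, each of them with higher signal in mutants. Of 63 listed partner genes (cytoplasmic scaffolds, junctional adhesion molecules, occludin relatives and polarity proteins), 32 were measured and 29 tested. Of these, 4 rose, 0 fell and 25 did not pass, with a median of 0.20. The share past the test was 13.8%, against 17.1% of all genes (8.09% higher and 9.02% lower). The list shares esama with the endothelial markers.

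The gene with the smallest p was ildr2, of the angulin family, whose members recruit proteins to tricellular contacts in mammals. It read 10.20 and 10.09 in WT and 11.36 and 11.44 in mutants, a difference of 1.26 ± 0.17 (SE) at an adjusted p of 0.0241 in limma. The scaffold gene magi1b followed, with 9.60 and 9.60 in WT and 10.64 and 10.89 in mutants, a difference of 1.16 ± 0.19 (SE) at an adjusted p of 0.0330. The endothelial adhesion molecule gene esama read 10.38 and 10.40 in WT and 11.74 and 11.44 in mutants, a difference of 1.20 ± 0.20 (SE) at an adjusted p of 0.0338. In all 3, which were chosen by their small p, the WT arrays were close and the groups did not overlap. Groups did not overlap in 67.8% of all tested genes. The fourth gene that rose was jam2a, a junctional adhesion molecule gene, with a difference of 0.92 ± 0.17 (SE) at an adjusted p of 0.0408, named after its values were seen. Signal was over 1 higher on WT array 1 than on WT array 2 for 6 of the 29, against 5.57% of all tested genes. These were oclnb, lsr, f11r.2, ildr1b, crb3b and igsf5a, with the WT arrays in the same order as for the epithelial claudins. Of these genes, ildr1b, crb3b and igsf5a were not well above background on every array, and their mutant arrays did not both lie between the WT arrays.

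Adherens junctions and desmosomes hold cells together below the tight junction. Of 24 listed genes of these junctions 17 were measured and 15 tested, of which 1 rose, 1 fell and 13 did not pass, a share of 13.3% against 17.1% of all genes, with a median of 0.16. The desmoplakin gene dspa, which links desmosomes to intermediate filaments, read 10.15 and 10.20 in WT and 11.21 and 11.39 in mutants, at an adjusted p of 0.0311 in limma. The gene that fell was nectin1b, a cell adhesion gene, with 4.25 and 4.23 in WT and 2.79 and 3.14 in mutants at an adjusted p of 0.0332. Mutant array 1 was there just below its background limit of 2.85.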

How the data were processed

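Hearts pooled from 72 hpf zebrafish embryos were measured on 4 single-colour (Cy3) Agilent arrays, grouped by their titles, from 200 ng of total RNA a sample per the labels' protocols. Per the file headers, the authors' intensity columns hold what Agilent Feature Extraction 10.5.1.1 writes as processed signal, with surrogate values for dim spots and no scaling between arrays: the 75th percentile of each column equals that in its header. An identical deposited intensity stood in the series' value table for all 43803 features. The deposited table of raw median intensity served 1 alternative and the check of the cldne spot, and the deposited headers gave array statistics (other values), among them how many features were well above background (23634 to 24477).

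Platform symbols were updated through gene identifiers where possible (no claudin symbol changed), using RefSeq names of assembly GRCz12tu, and no coordinates are given because the array was designed on another build. Of 43803 features, 21061 had 1 symbol, 0 several and 22742 none. Spots of 50 repeated probes were averaged. From log2 intensity each array's 75th percentile was subtracted and a common constant added. Tested were probes that exceeded their array's 40th percentile on 2 or more of the 4 arrays (26872 of 43603 probes), because the tables hold no flags. The test was limma's (version 3.58.1, under R 4.3.3: lmFit, then eBayes; two-sided, residual df 2, prior df 1.96), adjusted by Benjamini and Hochberg's method across every tested probe, with a threshold of 0.05, and intervals are at 95%. A gene was read through its probe with the highest mean. Every adjusted p in the text is limma's. The fit was tested on simulated data.

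The members, gene groups, partner and marker lists were chosen with earlier results of these data known. Values on every array were given for cldn5a, cldn5b, claudins past the test, the 2 with the next smallest p, those whose background state differed between groups, tested myelin and claudin domain genes, and, from each partner list, up to 3 rises and 3 falls of smallest p; other claudins and markers were named after their values were seen. Figures were drawn with matplotlib 3.10.9.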

Additional observations from a re-analysis of the deposited data

How the results depend on the processing

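Each alternative was run by itself; the 60th percentile filter also asks for all 4 arrays, and normexp also starts from the raw median signal. The causes of the changes were not tested. The count of claudins higher in mutants, 0 as reported, was 1 with quantile normalization, median scaling, normexp on raw median signal and the replicate block, 2 with the 60th percentile filter and with trend and robust options, and 3 with no scaling. Median scaling and no scaling moved the median of all genes from -0.04 to 0.11 and 0.17. The count lower in mutants, 2 as reported, was 4 with normexp and with trend and robust options, 1 with the replicate block, and 0 to 1 without single arrays (1 without either WT array, 0 without either mutant array). It was 3 with the mean over all probes of a gene, and 3 with each probe counted by itself, an alternative added after seeing the data. Over all genes 933 were higher and 1040 lower as reported. Higher calls were 1010 with quantile normalization, 1141 with median scaling and 1290 with no scaling. Higher and lower calls were 1341 and 1408 with normexp, 1453 and 1623 with trend and robust options, and 364 and 440 with the replicate block. The 60th percentile filter tested 11 claudins and 7898 genes, with 1004 genes higher and 1046 lower. The calls over all genes, 1973 as reported, were 1115 with no filter, 3076 with trend and robust options, 804 with the replicate block and 0 to 576 without single arrays. The cldn5a difference of 1.53 passed under the 60th percentile filter (limma, adjusted p = 0.0333) and with trend and robust options (0.0319); over all alternatives it was 1.06 to 2.01, with adjusted p of 0.0319 to 0.254. The cldn5b difference was 0.07 to 0.83, with adjusted p of 0.109 to 0.836. The cldn33b probe was left out by the 60th percentile filter, under which cldn11b and cldnd1a were the 2 lower claudins.

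Among the other claudins, 23 values changed sign, none of them in a gene that passed. Leaving out single arrays turned the sign in these genes, with ranges over the 4 left-out arrays of -0.39 to 1.42 (cldn1), -0.84 to 0.87 (cldn11a), -0.79 to 1.67 (cldn15la), -1.44 to 2.44 (cldn15lb), -0.81 to 0.56 (cldn23.1), -0.42 to 0.94 (cldn3c), -1.12 to 0.27 (cldn7b), -0.61 to 0.82 (cldn8.2), -0.75 to 0.62 (cldnb), -0.38 to 1.65 (cldnf) and -1.29 to 0.56 (cldni). Median scaling gave 0.027 (cldn23.1) and 0.090 (cldnb), no scaling 0.087 (cldn23.1) and 0.15 (cldnb), normexp -0.092 (cldn15lb) and -0.018 (cldn8.2), and the mean over probes 0.019 (cldnb) and -0.51 (cldnf). The other changes were 15 values that came past the threshold and 7 that lost it; 284 kept both direction and side.

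The samples share only a number between groups: the deviations of the same-numbered arrays correlated at 0.0702 over 26872 probes, so the numbers are not taken as pairs. With the replicate block cldn33b stayed past the test (adjusted p = 0.0386), cldnd1a did not (0.0587) and cldn7a passed (0.0434). Signal near background limits cldn7a, cldn8.3, cldn30, cldnf and cldnk most, and in the mutants it limits the size of the cldn33b fold.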
